A study of Mus musculus with 15 samples.

Results

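The combination of FGF8b, a paracrine fibroblast growth factor, with BAY-876, which blocks glucose uptake by GLUT1, was compared with untreated cells in immortalised mouse brown preadipocytes, the precursors of brown adipocytes. Of the 15 RNA-seq libraries of the series, 6 form this comparison: 3 of cells given both agents (combined) and 3 of cells given no agent (control). It was followed across 29072 genes, each represented by the transcript row of its symbol with the highest mean over all 15 libraries, and 13869 of them passed the filter on low levels and were tested. The line was derived from stromal-vascular cells of the interscapular fat pad of 129SvEv mice and carries the SV40 large T antigen, a viral protein that binds p53 and RB. The combined cells had 5.56 nM FGF8b and 2 µM BAY-876 for 48 h, and 3 libraries of cells given 5.56 nM FGF8b alone for 48 h serve as a further reference. The series text gives heparin (1 µg/ml) to the FGF treatments, whereas the labels of the combined and FGF8b libraries do not name it. The control libraries are labelled with no agent, and the sources used here do not say whether those cells had heparin, vehicle or the same 48 h, whether the line is 1 clone, or how many mice it came from. No group had BAY-876 or heparin alone. Whether libraries of the same group came from separate cultures is not stated, so p-values measure the spread between these libraries, which may be technical.

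FGFs of this kind bind receptor tyrosine kinases together with heparan sulfate and signal through RAS and ERK, which induces its own inhibitors of the Sprouty, SPRED and DUSP families. GLUT1, encoded by Slc2a1, is the main basal glucose carrier of many cell types. Glucose 6-phosphate drives the transcription factors MondoA and ChREBP, which with their partner MLX bind paired E-box-like elements at Txnip, whose product in turn restrains glucose uptake. Shortage of amino acids, misfolded protein in the endoplasmic reticulum (ER) and other stresses act through the factor ATF4, while ATF6 and XBP1 raise the ER chaperones. Brown adipocytes make heat through the uncoupling protein UCP1, and their precursors are stromal cells rich in fibrillar collagen.

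Levels are given in RPKM, which divides reads by transcript length in kilobases and by M reads of the library. A change is the difference of group means of log2(RPKM + 0.5), given as combined minus control with its SE, with Benjamini-Hochberg adjusted p from limma over all 13869 genes and a threshold of 0.05. The added 0.5 shrinks changes of genes at low levels in either group. For some of these the recovered reads are given too, mostly with a ratio of reads per M reads and a 95% exact interval that covers counting error only. For the others the printed change is understated. Between 29.6 and 42.6 M reads stood behind a combined library and between 31.6 and 37.5 M behind a control library. Correlations across genes, which are not independent replicates, were 0.9940 to 0.9964 within the combined group, 0.9933 to 0.9959 within control, 0.8786 to 0.8920 between these groups and 0.9592 to 0.9663 between combined and FGF8b libraries. Markers of other cells were low: the 7 markers of mature adipocytes summed to 5.04 to 5.86 RPKM in the combined libraries, nearly all from Fabp4, with Adipoq, Plin1, Cidea, Cidec, Lep and Retn at 0. The leukocyte gene Ptprc, the macrophage gene Emr1 and the muscle factors Myod1, Myog and Myf5 were at 0 in all combined and control libraries, and the 5 endothelial markers summed to 7.63 to 8.98 RPKM in control and 0.752 to 0.921 in combined libraries. Summed markers of macrophages (2.23 to 2.70 RPKM in control, 1.81 to 2.42 combined), skeletal muscle (4.86 to 5.34 and 5.54 to 7.38), mural cells (2.25 to 2.92 and 3.79 to 5.29) and Schwann cells (3.38 to 4.05 and 1.16 to 1.29) were as low, and the part of these cells in the results was not tested. In control cells the preadipocyte genes Pdgfra (276 ± 2.67 RPKM), Ly6a (1015) and Ebf2 (11.1) were present, while Zfp423, another marker of committed preadipocytes, was at 0.0733 ± 0.0694 RPKM.

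Several gene groups that moved together have a known binding sequence for the factor they are named after, so stretches that carry it just before the start of 6 members are shown first. They come from the RefSeq promoter windows on GRCm38.p6, are written 5′ to 3′ on the gene's strand, and end 7 to 146 bases before the start that RefSeq gives. Capitals mark the match: CACGNG repeated after any 5 bases in Txnip, the interferon response element (GAAA, any 2 bases, GAAA) in Isg15 and Ifit1, the ATF4 element TGATGNAA in Chac1 and Atf3, and the ER stress element (CCAAT, any 9 bases, CCACG) in Hspa5, each sought on both strands.
Txnip (chr3:96557832-96557928, plus strand): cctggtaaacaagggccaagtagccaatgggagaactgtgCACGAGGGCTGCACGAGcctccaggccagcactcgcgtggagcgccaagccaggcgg
Isg15 (chr4:156200835-156200936, minus strand): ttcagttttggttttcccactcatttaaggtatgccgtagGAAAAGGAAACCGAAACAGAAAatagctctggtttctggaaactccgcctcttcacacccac
Ifit1 (chr19:34640745-34640853, plus strand): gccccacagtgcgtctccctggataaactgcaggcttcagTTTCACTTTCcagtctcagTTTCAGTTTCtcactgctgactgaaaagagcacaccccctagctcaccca
Chac1 (chr2:119351009-119351096, plus strand): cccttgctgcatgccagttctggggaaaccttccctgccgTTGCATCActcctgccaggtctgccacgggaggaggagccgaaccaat
Atf3 (chr1:191183396-191183483, minus strand): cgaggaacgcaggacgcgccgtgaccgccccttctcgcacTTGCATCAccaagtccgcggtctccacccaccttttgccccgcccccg
Hspa5 (chr2:34771985-34772083, plus strand): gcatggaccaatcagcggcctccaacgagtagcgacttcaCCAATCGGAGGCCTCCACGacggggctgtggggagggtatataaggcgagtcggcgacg
The 3 matches of Isg15 overlap each other, and those of Ifit1, Chac1 and Atf3 are read on the opposite strand. A match describes letters and is not a shown binding site. The Txnip pair starts 85 bases before the gene's start and occurs in 16 of 32851 windows (0.0487%). Of the 8 members of the MondoA list with a window, Txnip alone held it. Among the members of the other lists that have a window, 14 of 26 interferon genes held the interferon element (53.9%, against 3.91% of tested genes with a window and 3.44% of all windows), 13 of 29 ATF4 genes held TGATGNAA (44.8%, against 2.86% and 3.97%) and 8 of 20 ER folding genes held the ER stress element (40%, against 0.176% and 0.119%). For the element TGACNNNGC of NRF2 the share was 7 of 18 (38.9%, against 17.1% and 12.4%), and for the sterol element TCACNCCAC it was 1 of 24 (4.17%, against 1.39% and 1.24%). Because the lists were put together as genes of these factors or pathways, a high share among members does not test the factor in these cells.

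The combined treatment left most of the transcriptome at other levels than in control. Of the 13869 genes 72.7% passed the test, 5106 higher (36.8%) and 4977 lower (35.9%), and the median change over all genes was 0.01. The falls were the deeper: 1578 genes (11.4%) fell by at least 1 on the log2 scale, 1091 (7.87%) rose by at least 1, and 315 changed by at least 3. FGF8b alone, set against the same 3 control libraries, differed at 64.4% of genes (37.8% higher, 26.6% lower), with 152 past 3. The combined and FGF8b libraries differed at 57.3% of genes (22.5% higher with BAY-876, 34.8% lower), 31 of them by at least 3. Because these comparisons share libraries, their values are set side by side below and the difference between combined and FGF8b is given with its own test. The shares over all genes given here are the reference for the list counts below, and a list near them is not set apart by its count.

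**Figure D1:**
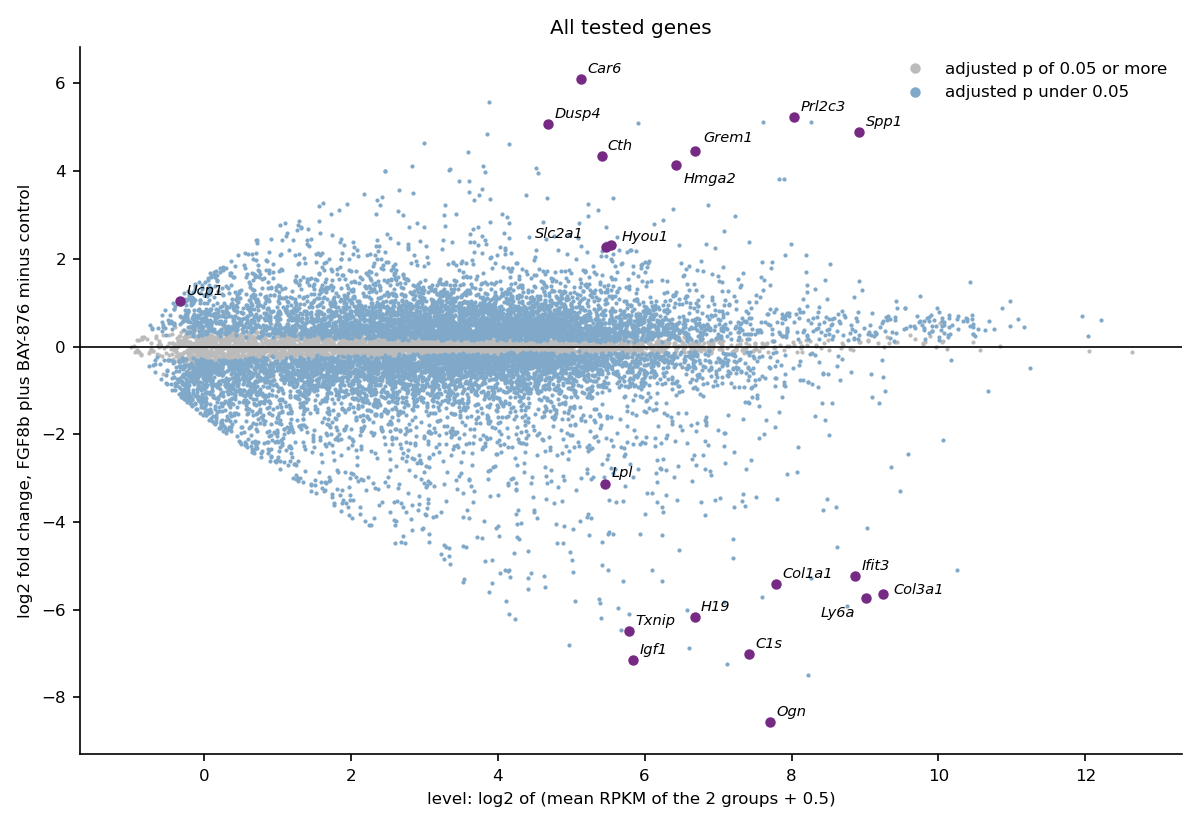
Change of each tested gene between combined and control libraries (vertical axis, log2 of RPKM + 0.5) against its level (horizontal axis, log2 of the mean RPKM of both groups + 0.5). Blue points passed the adjusted p of 0.05; named genes are in purple, from Ogn at -8.56 to Car6 at 6.10.

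Among genes of glucose handling the MondoA targets Txnip and Arrdc4 fell, and Slc2a1 and the hexokinase gene Hk2 rose. Txnip (GRCm38 chromosome 3, 96557957 to 96561883), the arrestin-like protein that restrains glucose uptake, was at 112, 100.3 and 116 RPKM in control, 104, 94.4 and 102 with FGF8b and 0.831, 0.639 and 0.695 in the combined libraries. All 3 combined libraries lay far under every control and FGF8b library. The control libraries held 31958 reads and the combined ones 222 (ratio 151 with a 95% exact interval of 132 to 173). The change was -6.49 ± 0.07 (adjusted p = 1.45e-18), and -6.37 ± 0.07 against FGF8b (adjusted p = 4.70e-18), which itself did not pass against control (-0.12, adjusted p = 0.129). The predicted antisense gene Gm15441 covers all 3927 bases of Txnip in GENCODE vM21 and changed by -5.40. The TruSeq RNA kit named in the labels does not mark strand, so reads in the bases that both genes share cannot be told apart. Arrdc4, a relative of Txnip and the other classical MondoA target, was at 6.80, 7.005 and 6.58 RPKM in control, 10.9, 8.32 and 9.54 with FGF8b and 0.568, 1.58 and 0.833 in combined libraries (-2.34 ± 0.17, adjusted p = 6.29e-09). Its combined libraries did not overlap the others. Of the 10 tested members of this list 6 fell and 3 rose (median -0.92), beside 36.8% of all tested genes higher and 35.9% lower. Arrdc3, another arrestin-like gene, fell against both groups (-1.37 against control, -1.54 against FGF8b). The fructose kinase Khk (-2.02) and the PI3K inhibitor Pik3ip1 (-1.98) fell against control, and FGF8b alone already had most of that change (-1.71 and -1.80). Mlx, the partner of MondoA, rose (0.83), while Mlxip, which encodes MondoA, fell (-0.47).

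Slc2a1 (GRCm38 chromosome 4, 119108711 to 119137983), the gene of the inhibited transporter, was at 15.6, 14.02 and 14.2 RPKM in control, 39, 35.1 and 41.1 with FGF8b and 66.2, 71.2 and 81.6 in combined libraries. The 3 groups did not overlap and stood in this order. Its change was 2.28 ± 0.10 (adjusted p = 6.87e-12), of which 0.92 ± 0.10 lay between FGF8b and combined (adjusted p = 1.15e-06). Of the 13 glucose transporter genes 7 were tested, 5 rose and 2 did not pass. The inositol carrier Slc5a3, a sodium-coupled member, went from 5.16 to 26.7 RPKM (2.27), and 6 members stayed under the filter. In glycolysis 19 of 28 genes rose and 4 fell (median 0.67). FGF8b alone already had 17 higher and 3 lower than control (median 0.73). Between combined and FGF8b 12 were higher, 4 lower and 12 did not pass, beside 22.5% and 34.8% of all genes higher and lower. The largest rise was in Hk2, the inducible hexokinase that traps glucose in the cell, from 1.37, 1.06 and 1.52 to 12, 10.4 and 12.2 RPKM, with FGF8b between at 4.29, 4.80 and 5.22. No library of 1 group reached another group (2.73 ± 0.11, adjusted p = 1.88e-12). The lactate exporter Slc16a3 (2.38), Eno1 (1.70) and Pgk1 (1.51) came next in size against control, and the phosphofructokinase gene Pfkm fell (-1.03). Against FGF8b, limma's voom on the recovered reads gave 0.87 for Eno1, 0.12 for Slc16a3 (adjusted p = 0.563) and -0.23 for Pgk1. Aldoc did not pass (0.08, 95% interval -0.44 to 0.60).

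**Figure D2:**
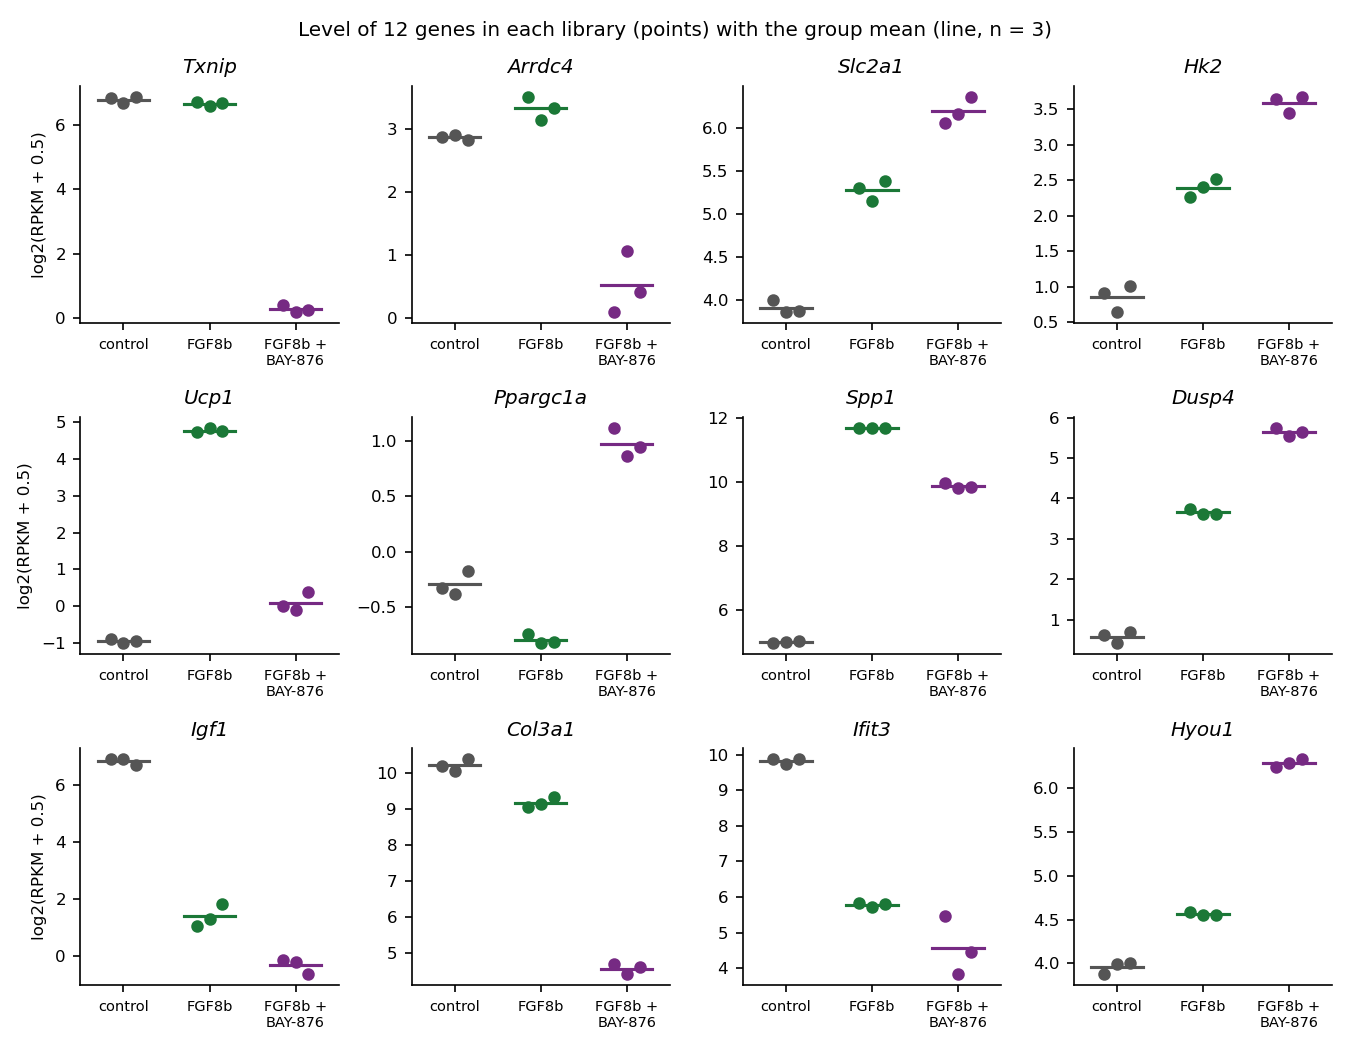
Level of 12 genes in each library (points, log2 of RPKM + 0.5; each panel has its own axis) with the group mean of 3 libraries as a line, for control, FGF8b and FGF8b plus BAY-876. Txnip and Arrdc4 were low in the combined group only among these 3, Slc2a1, Hk2 and Dusp4 rose in steps, and Ucp1 was high with FGF8b alone.

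In the pentose phosphate and hexosamine pathways 9 of 16 genes rose and 5 fell. Gnpnat1 (1.34) and Gfpt2 (0.92) of the hexosamine route and Taldo1 (1.03) rose, and H6pd, the ER enzyme, fell (-1.32). Fatty acid oxidation fell in 18 of 24 genes (median -0.65, against 0.01 over all genes). Acadvl, the first dehydrogenase for very long chains, was at 53.1, 49.8 and 46.9 RPKM in control, 31.4, 32.7 and 31.7 with FGF8b and 9.84, 10.2 and 9.68 in combined libraries (-2.28 ± 0.06, adjusted p = 8.85e-15). It was lower than in either other group in every combined library, by -1.64 ± 0.06 against FGF8b (adjusted p = 2.95e-12). The thiolase Acaa2 (-1.63) and the electron carrier Etfb (-1.16) fell too, and the acyl-CoA thioesterase Acot2 rose (2.04). Pyruvate entry and citrate cycle genes went both ways (15 higher, 10 lower, 12 not passing, of 37). Over all tested genes 36.8% were higher and 35.9% lower. The pyruvate dehydrogenase kinases Pdk4 (-2.54) and Pdk2 (-1.28) and the phosphatase Pdp1 (-2.06) fell, and the dehydrogenase subunit Pdhb rose (1.07).

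The 46 nuclear subunits of the respiratory chain had a median change near 0, with 10 higher, 16 lower and 20 not passing (median -0.05). Under FGF8b alone 26 were higher and 3 lower than control (median 0.15; 37.8% and 26.6% of all genes), and against FGF8b the combined cells had 4 higher and 18 lower (median -0.13, against -0.08 over all genes, of which 22.5% were higher and 34.8% lower). Uqcrq of complex III (1.82) and cytochrome c (Cycs, 1.27) rose most against control, and Cox6c of complex IV fell most (-0.82). Of 25 hypoxia genes 15 rose and 7 fell. Vegfa, an angiogenic factor, rose from 11.2 to 77.02 RPKM (2.73) and the oxygen sensor Egln3 rose (2.44). The members that fell most do other work too, the collagen cross-linker Lox (-4.56) and the vasodilator peptide Adm (-3.76).

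Feedback genes and targets of ERK were high in the combined cells, some of them above and some below their levels with FGF8b alone. Of 29 feedback genes and targets 22 rose and 6 fell (median 1.21). The phosphatase gene Dusp4 was at 1.02, 0.833 and 1.11 RPKM in control, 12.9, 11.8 and 11.7 with FGF8b and 53.4, 46.02 and 49.6 in combined libraries. These groups were far apart, with the combined libraries highest (5.08 ± 0.09, adjusted p = 3.90e-16; against FGF8b 1.99 ± 0.09, adjusted p = 1.26e-10). Its relative Dusp6 had the opposite order of the treated groups, 18.1, 18.5 and 19.3 RPKM with FGF8b and 11.8, 12.8 and 13.1 in combined libraries, from 1.45, 1.24 and 1.35 in control (2.82 ± 0.09, adjusted p = 1.29e-13; against FGF8b -0.55 ± 0.09, adjusted p = 6.32e-05). The AP-1 member Fosl1 (2.08 to 42.8 RPKM, 4.06) and the cyclin gene Ccnd1 (7.74 to 85.97, 3.39) exceeded their FGF8b levels by 2.34 and 1.20. The chromatin protein gene Hmga2 rose from 8.65 to 162 RPKM (4.15). Etv4, an ETS factor induced by FGF, was at 1.22 in control, 23.5 with FGF8b and 26.2 in combined cells, where the treated groups did not pass against each other (0.15, 95% interval -0.13 to 0.42). The inhibitors Spry1 (-1.31) and Spry2 (-0.80) and the early gene Egr1 (-1.21) lay below control.

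Fgfr1, the receptor gene with the highest RPKM among the tested FGF receptors, was at 79, 64.8 and 69.01 RPKM in control and 91.7, 94.3 and 98.1 in combined libraries, with all combined libraries above (0.42 ± 0.07, adjusted p = 8.24e-05). Of 19 receptors and coreceptors 13 fell (median -0.84). Sulf2, which trims 6-O-sulfate from heparan sulfate, was at 34.4 RPKM in control, 1.047 with FGF8b and 9.40 in combined cells: it fell against control (-1.82) and was higher than with FGF8b (2.67 ± 0.07, adjusted p = 4.24e-13). The neuropilin Nrp1 (-2.37) and the syndecan Sdc3 (-1.20) fell, and the glypican Gpc1 rose (1.04).

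Ucp1 and Ppargc1a were both above control in the combined cells, at low levels. Ucp1 (GRCm38 chromosome 8, 83290352 to 83298452) was at 0.0464, 0 and 0.0216 RPKM in control, 25.7, 28.1 and 26.2 with FGF8b and 0.504, 0.438 and 0.797 in combined libraries. The combined libraries were all above control and far under FGF8b. The 3 control libraries held 3 reads and the combined ones 81, a ratio of 25.7 with a 95% exact interval of 8.497 to 127. The change was 1.03 ± 0.11 (adjusted p = 3.67e-07), or 4.33 by limma's voom on the recovered reads, and -4.67 ± 0.11 against FGF8b (adjusted p = 4.78e-14). Ppargc1a, a coactivator of mitochondrial and thermogenic genes, had another order: 0.0987, 0.0646 and 0.0680 RPKM with FGF8b, 0.297, 0.268 and 0.389 in control and 1.67, 1.32 and 1.42 in combined libraries (1.27 ± 0.10, adjusted p = 2.18e-08). Of 25 thermogenic genes 11 were tested, 7 rose and 3 fell. Among 14 adipocyte genes 6 rose, 4 fell and 4 did not pass (median 0.04), beside 36.8% of all tested genes higher and 35.9% lower. The nuclear receptor gene Pparg (0.17, 95% interval -0.07 to 0.40) was among those that did not pass. Lpl, the lipoprotein lipase, fell from 78.8 ± 10.8 to 8.54 ± 0.669 RPKM (-3.13 ± 0.09), while the factor Klf15 (1.85) and the lipid droplet coat gene Plin4 (1.32) rose.

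Genes of the progenitor state were lower in 16 of 21 cases and higher in 3. Ly6a, the Sca-1 surface antigen, was at 1047, 932 and 1067 RPKM in control and 21.2, 16.7 and 17.9 in combined libraries (-5.74 ± 0.08, adjusted p = 2.86e-17), with FGF8b at 52.7, 49.7 and 55.6. Pdgfra, the platelet-derived growth factor receptor of stromal progenitors, went from 276 ± 2.67 to 21.5 ± 1.09 (-3.65) and the Notch-family ligand Dlk1 from 201 ± 24.8 to 16.9 ± 2.60 (-3.54). The surface glycoprotein Cd24a went the other way, from 0.919, 0.862 and 1.09 RPKM to 11.5, 11.7 and 10.3, although FGF8b alone had 0.530, 0.599 and 0.447 (3.01 ± 0.12, adjusted p = 3.48e-12). All 8 tested markers of stromal cells fell (median -3.90), and their summed level was 3188 to 3656 RPKM in control, 1751 to 1948 with FGF8b and 216.9 to 231.6 in the combined libraries. In such bulk samples fewer cells of a type and less RNA per cell cannot be told apart.

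Matrix transcripts fell, many of them further than with FGF8b alone. Of 48 collagen and matrix genes 42 fell and 4 rose, with a median of -2.60. With FGF8b alone the median was -1.33, and combined cells lay below FGF8b in 40 genes and above in 1 (median -1.21). Ogn (osteoglycin, GRCm38 chromosome 13, 49608046 to 49624501), a small leucine-rich proteoglycan, was at 369, 428 and 454 RPKM in control, 4.93, 5.40 and 4.55 with FGF8b and 0.585, 0.596 and 0.627 in combined libraries. It had the deepest fall of the genes named here on log2(RPKM + 0.5), a scale that shrinks the falls of less abundant genes (-8.56 ± 0.09, adjusted p = 1.45e-18), and 76366 control reads stood against 116 (ratio 691 with a 95% exact interval of 576 to 836). Aspn (asporin), which FGF8b alone also lowered, was at 61.6 RPKM in control, 0.606 with FGF8b and 0.0585 in combined cells, where 3 reads stood against 3696 in control (ratio 1293 with a 95% exact interval of 442 to 6272). Col3a1 (GRCm38 chromosome 1, 45311538 to 45349706), the fibrillar collagen of soft stroma, was at 1167, 1066 and 1342 RPKM in control, 527, 568 and 642 with FGF8b and 25.3, 20.9 and 23.9 in combined libraries. Its change was -5.64 ± 0.10 against control and -4.60 ± 0.10 against FGF8b (adjusted p = 1.40e-14). Col1a1 (523, 374 and 400.9 to 7.54, 10.4 and 11.02 RPKM, -5.42), Col1a2 (-4.14), Col6a1 (-5.71) and Col6a2 (-6.01) followed it.

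Some matrix genes that FGF8b raised were below control in combined cells. Lum (lumican) was at 11.2, 11.3 and 12.9 RPKM in control, 23.1, 27.01 and 24.6 with FGF8b and 0.0348, 0.0435 and 0.0905 in combined libraries, 1911 reads against 10 between control and combined (ratio 200.5 with a 95% exact interval of 109 to 419). Dcn (decorin) had 474, 806 and 65.2 RPKM in the same order (-2.86 ± 0.08 against control and -3.62 ± 0.08 against FGF8b). Tnc (tenascin-C), at 28 ± 1.25 RPKM in control and 129 ± 11.9 with FGF8b, was at 28.2 ± 4.70 in combined cells and did not pass against control (-0.00, 95% interval -0.21 to 0.21). Spp1 (osteopontin, GRCm38 chromosome 5, 104435118 to 104441050) was the exception in size: 30.5, 31.5 and 31.8 RPKM in control, 3308, 3306 and 3290 with FGF8b and 1002, 896 and 919 in combined libraries. It rose against control (4.88 ± 0.06, adjusted p = 2.68e-18) and stood below FGF8b (-1.81 ± 0.06, adjusted p = 9.94e-13). The basement membrane collagens Col4a1 (0.35), Col4a2 (0.64) and Col18a1 (0.57) were the other members that rose.

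Matrix proteases and their inhibitors fell in 19 of 26 genes and rose in 5 (median -1.36). The stromelysin Mmp3 (37.2 to 1.79 RPKM, -4.02), the procollagen peptidase Adamts2 (-3.90) and the aggrecanase Adamts5 (-3.73) fell. Adamts15 had 5 reads in combined libraries and 3906 in control (ratio 819.8 with a 95% exact interval of 351 to 2526). The cathepsin gene Ctsk (37.4 to 142 RPKM, 1.92) and the urokinase receptor Plaur (3.33) rose. Contractile and SRF-YAP genes were split (11 higher, 13 lower of 27), beside 36.8% of all tested genes higher and 35.9% lower. The collagen integrin Itga11 (-2.99) and the myosin light chain Myl9 (-2.44) were lowest.

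**Figure D3:**
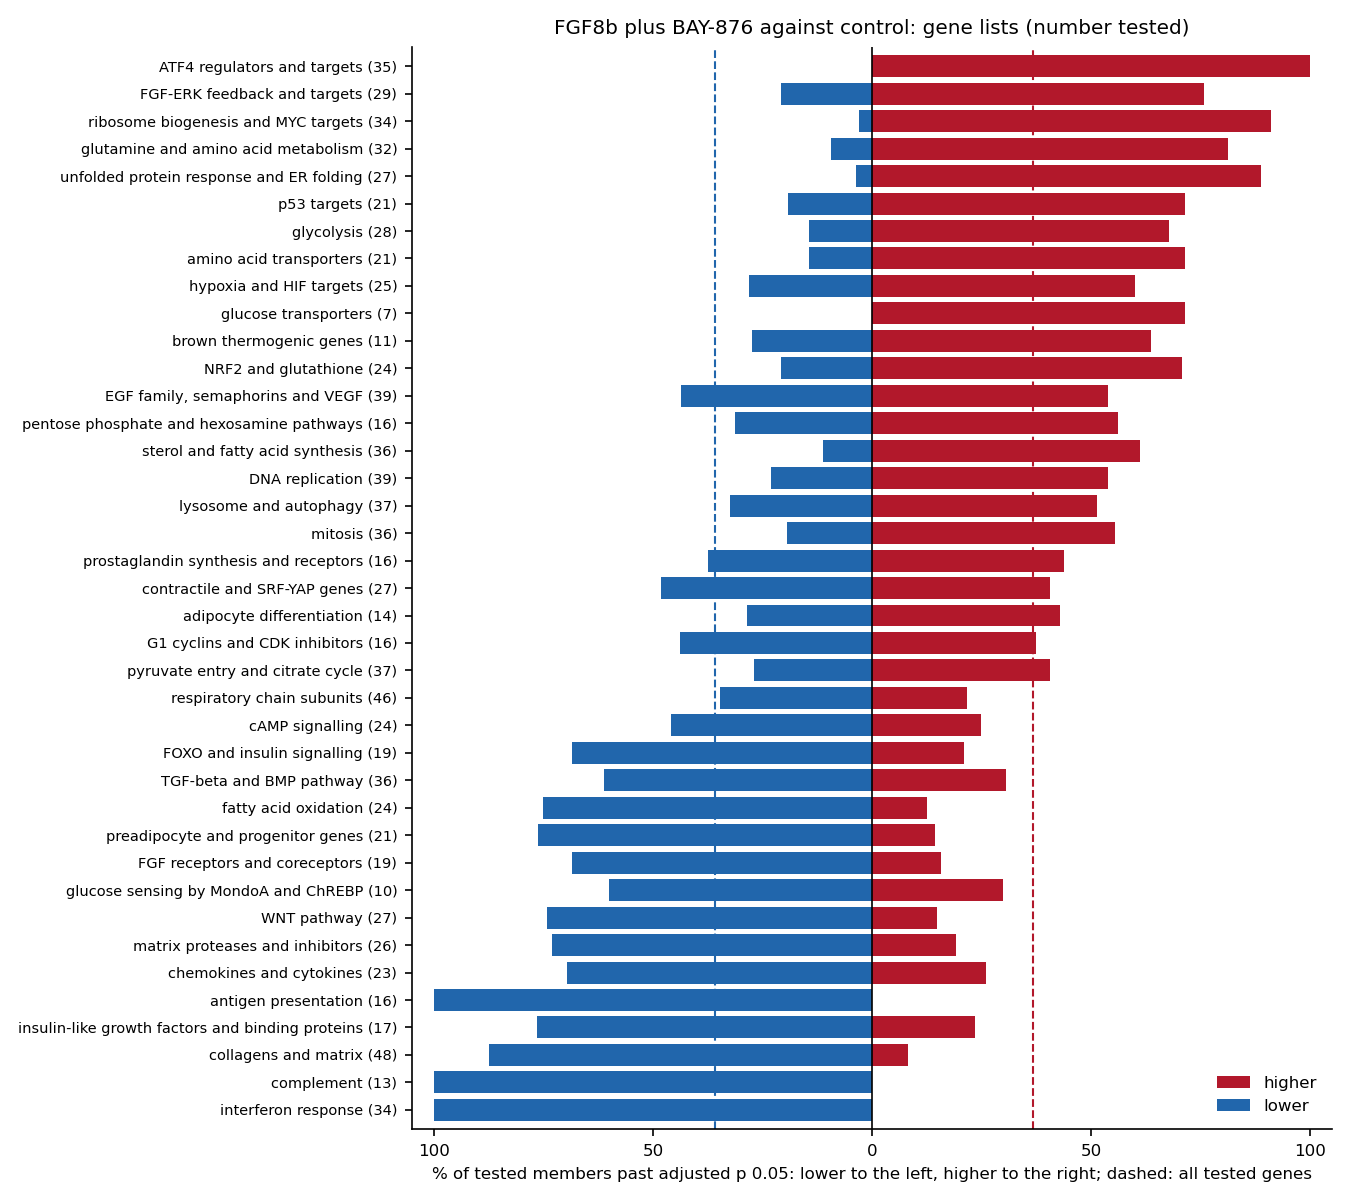
Share of tested members of each gene list that passed the adjusted p of 0.05 between combined and control libraries, higher to the right (red) and lower to the left (blue), with the number tested in brackets and lists ordered by median change. Dashed lines mark the shares over all 13869 genes, 36.8% higher and 35.9% lower.

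Interferon response genes were lower throughout. All 34 tested members fell, with changes of -1.04 to -5.24 (median -3.47, and -2.47 with FGF8b alone). Of them 28 were lower than with FGF8b, beside 34.8% of all genes. Ifit3, an antiviral tetratricopeptide protein, was at 942, 849 and 934 RPKM in control, 56.2, 52.7 and 55.5 with FGF8b and 43.8, 13.8 and 21.3 in combined libraries (-5.24 ± 0.26, adjusted p = 3.44e-11; against FGF8b -1.20 ± 0.26, adjusted p = 8.70e-04). Isg15, the ubiquitin-like modifier whose promoter is shown above, was at 470.5, 388 and 367 in control and 46.9, 28.01 and 34.8 in combined libraries (-3.49 ± 0.15, adjusted p = 5.48e-12). The combined libraries differed among themselves: of the 34 genes 31 were highest in library 1 and all 34 were lowest in library 2. Library 2 was also lowest for most genes of some other lists, such as antigen presentation (14 of 16) and mitosis (23 of 36). Not all lists had this order: library 2 was lowest for 2 of 27 contractile genes and highest for 19. Without library 1 the interferon list median was -3.70 and without library 2 it was -3.20. Mx1 (31.4 to 0.408 RPKM), Oas2 (26.8 to 0.445) and Rsad2 (40.5 to 1.177), which block viral replication, were among the lowest.

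Antigen presentation fell in 16 of 16 genes (median -1.93), and FGF8b alone also lowered all 16 (median -1.78). Between combined and FGF8b 9 were lower, 3 higher and 4 did not pass, beside 34.8% and 22.5% of all genes lower and higher. The largest falls against control were in the immunoproteasome subunit Psmb9 (-3.81), the nonclassical class I gene H2-T23 (-3.50) and the peptide transporter Tap1 (-3.05). Class I genes share sequence, so their reads may be split. All 13 tested complement genes fell (median -3.34, and -2.78 with FGF8b alone). The protease gene C1s was at 328, 319 and 374 RPKM in control, 29.8, 30.2 and 34.2 with FGF8b and 2.29, 1.66 and 2.58 in combined libraries (-7.00 ± 0.11, adjusted p = 9.20e-17; against FGF8b -3.59 ± 0.11). Each group lay about an order of magnitude under the one before. C1ra (-5.34) and the C1 inhibitor Serping1 (-4.46) fell too. Chemokines and cytokines fell in 16 of 23 genes and rose in 6: the interferon-induced Cxcl9 (-5.30) and Cxcl10 (-5.09) fell, and the eosinophil attractant Ccl11 went from 7.63, 9.02 and 9.20 RPKM in control and 6.88, 8.87 and 8.56 with FGF8b to 0.0553, 0.0345 and 0.0479. The alarmin Il33 rose from 1.63 to 24.98 RPKM, under its 85.01 with FGF8b (3.58 against control, -1.75 against FGF8b).

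ATF4 and its targets were high in the combined cells, as they were with FGF8b alone. All 35 members rose against control (median 1.74; FGF8b alone 1.86). Against FGF8b 9 were higher, 16 lower and 10 did not pass, beside 22.5% of all genes higher and 34.8% lower. Atf4 (GRCm38 chromosome 15, 80255184 to 80257541) was at 81.6, 78.6 and 78.95 RPKM in control, 312, 308 and 319.7 with FGF8b and 313, 296 and 309 in combined libraries (1.93 ± 0.04, adjusted p = 2.48e-15). The treated groups overlapped, with a difference of -0.03 (95% interval -0.12 to 0.06). Cth, the cystathionine lyase that makes cysteine, rose from 3.48 ± 0.0826 to 80.8 ± 3.43 RPKM (4.35 ± 0.06, adjusted p = 1.53e-17), and Chac1, which degrades glutathione, from 1.01 ± 0.236 to 25.8 ± 2.21 (4.13). Atf3, a stress factor, was at 1.27, 0.857 and 0.927 RPKM in control, 11.1, 10.4 and 8.07 with FGF8b and 22.1, 17.3 and 21.5 in combined libraries, the combined libraries all highest (1.01 ± 0.15 against FGF8b, adjusted p = 3.97e-05). The autophagy adaptor Sqstm1 was higher than with FGF8b too (1.21), while the pseudokinase Trib3 was lower than with FGF8b (-0.57).

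Amino acid metabolism rose in 26 of 32 genes and fell in 3 (median 0.98), with the mitochondrial folate enzyme Mthfd2 (16.6 to 149 RPKM, 3.14), the alanine transaminase Gpt2 (2.96) and the serine enzyme Shmt2 (2.89) highest after Cth. Glud1 did not pass (0.00, 95% interval -0.11 to 0.12). Amino acid transporters rose in 15 of 21, led by the cationic carriers Slc7a3 (4.02) and Slc7a1 (2.60). The glutamate carrier Slc1a3 went the other way, from 61.3, 67.2 and 65.5 RPKM in control and 11.4, 11.1 and 12.2 with FGF8b to 0.607, 0.671 and 0.722 in combined libraries (-5.80 ± 0.06, adjusted p = 1.45e-18).

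Most ER folding genes were higher in the combined cells than in control and than with FGF8b. Of 27 genes 24 rose and 1 fell against control (median 0.78), and 24 were higher and 1 lower than with FGF8b (median 0.65). FGF8b alone gave 8 higher and 9 lower than control (median -0.01). Hspa5 (BiP, GRCm38 chromosome 2, 34771970 to 34777547), the main ER chaperone, was at 279, 278 and 306 RPKM in control, 280.1, 267 and 255 with FGF8b and 740.5, 704 and 682 in combined libraries, all above both other groups, which overlapped each other (1.30 ± 0.07, adjusted p = 2.38e-10). Hyou1, its nucleotide exchange factor, rose from 15.1 ± 0.758 to 77.3 ± 2.56 RPKM (2.32 ± 0.05). Sdf2l1, a cofactor of BiP, was at 8.34, 8.23 and 6.73 RPKM in control, 3.39, 2.53 and 2.94 with FGF8b and 25.7, 30.1 and 27.9 in combined libraries, so that FGF8b was lowest and combined highest (1.78 ± 0.10 against control, 3.05 ± 0.10 against FGF8b). The oxidoreductase Ero1lb rose too (1.73 against control, 1.06 against FGF8b). Its relative Ero1l rose against control (2.21) but was no higher than with FGF8b, at 19.4 RPKM in control, 106 with FGF8b and 92.3 in combined cells.

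**Figure D4:**
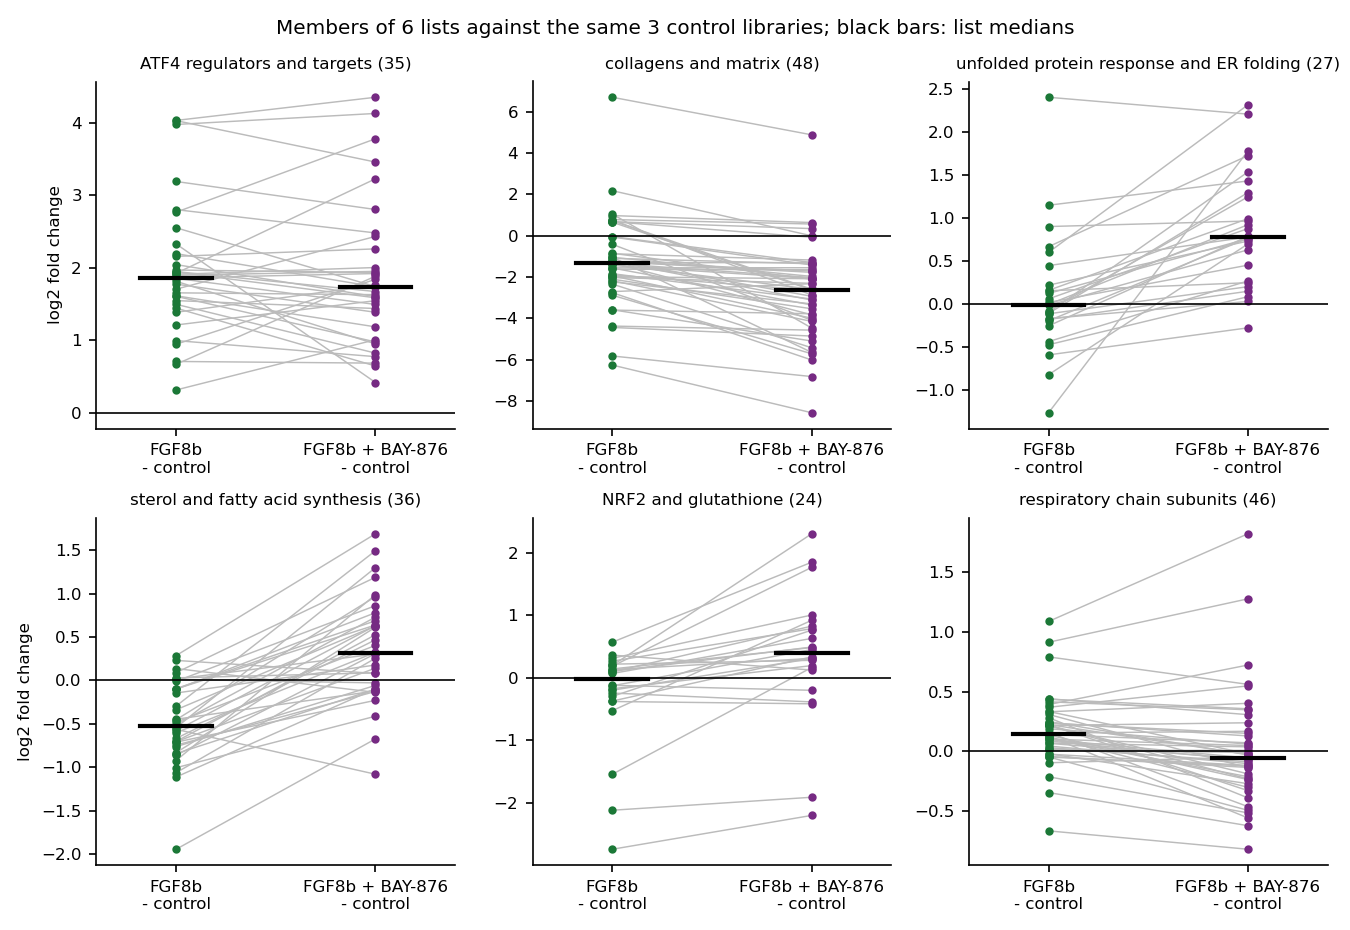
Changes against the same 3 control libraries (vertical axis, log2 of RPKM + 0.5) of FGF8b alone (green) and FGF8b plus BAY-876 (purple) for the tested members of 6 lists, each line 1 gene and black bars the list medians. The ATF4 medians were 1.86 and 1.74, those of ER folding -0.01 and 0.78, and those of sterol and fatty acid synthesis -0.53 and 0.32.

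The median of sterol and fatty acid synthesis genes lay above control, where with FGF8b alone it lay below. Against control 22 of 36 genes rose and 4 fell (median 0.32), while FGF8b alone had 1 higher and 24 lower (median -0.53). The difference between combined and FGF8b passed upward in 31 genes and downward in 1. Insig1, the sterol sensor anchor, was an exception in that FGF8b alone did not lower it. It was at 26, 26.5 and 27.6 RPKM in control, 30.9, 32.4 and 34.9 with FGF8b and 93.6, 76.04 and 93.1 in combined libraries (1.69 ± 0.07, adjusted p = 4.71e-12). Fasn, the fatty acid synthase, was at 30.1, 26.01 and 22.98 in control, 16.6, 16.99 and 20.2 with FGF8b and 60.9, 57.7 and 78.8 in combined libraries (1.30 ± 0.14, adjusted p = 5.70e-07). Lanosterol synthase (Lss, 1.49) rose as well. Of the 36 genes 32 were lowest in combined library 2.

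NRF2 and glutathione genes rose in 17 of 24 cases and fell in 5 (median 0.39). Against FGF8b 19 were higher and 1 lower, beside 22.5% and 34.8% of all genes. Srxn1, which repairs peroxiredoxins, was at 15.9, 15.97 and 15 RPKM in control, 18.1, 18.4 and 17.6 with FGF8b and 81.4, 75.8 and 80.9 in combined libraries (2.31 ± 0.05, adjusted p = 1.83e-15). The combined libraries were clear of both other groups. Thioredoxin reductase (Txnrd1, 1.85) and the glutamate-cysteine ligase Gclc (1.77) rose, whereas the glutathione transferases Gstm1 (-2.20) and Mgst1 (-1.91) fell. Of 21 p53 targets 15 rose and 4 fell (median 0.70). Cdkn1a (p21), an inhibitor of cyclin-dependent kinases, was at 17.7, 16.1 and 15.4 RPKM in control, 16.02, 14.8 and 16.98 with FGF8b and 53.7, 54.99 and 56.97 in combined libraries. FGF8b and control overlapped, and the combined libraries were all higher (1.72 ± 0.07, adjusted p = 7.97e-12). The growth arrest gene Gadd45a (3.25) and the BH3-only gene Pmaip1 (2.13) rose and Gadd45b (-2.20) fell.

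Lysosome and autophagy genes rose in 19 and fell in 12 of 37 (median 0.24, and 0.44 against FGF8b). Over all tested genes 36.8% rose and 35.9% fell. Rragd, a GTPase that links lysosomes to mTORC1, was at 0.417, 0.651 and 0.937 RPKM in control, 2.09, 2.21 and 1.61 with FGF8b and 19.6, 17.1 and 19.2 in combined libraries (4.06 ± 0.14, adjusted p = 6.44e-13). The proton pump subunit Atp6v1h rose (1.58), and Tfeb, the factor that induces lysosomal genes, fell (-1.56).

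The list of insulin-like growth factors, binding proteins and linked genes such as H19 was among the deepest losses, with 13 of 17 lower, 4 higher and a median of -2.10. Igf1 (GRCm38 chromosome 10, 87858265 to 87937042) was at 119.6, 118 and 103 RPKM in control, 1.58, 1.94 and 3.04 with FGF8b and 0.415, 0.363 and 0.144 in combined libraries, 7658 reads against 21 between control and combined (ratio 383 with a 95% exact interval of 250.2 to 619). The change was -7.15 ± 0.16 (adjusted p = 3.02e-15). The imprinted noncoding RNA H19, part of the Igf2 locus, was at 204, 189 and 214 RPKM in control, 80.98, 92.4 and 114 with FGF8b and 2.53, 1.83 and 2.63 in combined libraries (-6.17 ± 0.12 against control and -5.09 ± 0.12 against FGF8b, adjusted p = 4.78e-14). The binding protein Igfbp3 went from 267 ± 19.1 RPKM to 1.32 ± 0.385 with FGF8b and 4.19 ± 0.304 in combined cells (-5.83 against control). Stc2, an inhibitor of the IGFBP protease PAPP-A, rose (3.23). Among 19 FOXO and insulin signalling genes 13 fell and 4 rose, with Pik3r1 (-1.61) and Irs1 (-1.57), both adaptors of insulin signalling, lower.

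Ribosome biogenesis genes and MYC targets rose in 31 of 34 cases (median 1.12), with the ribosomal RNA processing factors Rrp9 (1.90), Rrs1 (1.89) and Rrp12 (1.81) highest. The MYC antagonist Mxd4 fell (-2.20). Among 39 DNA replication genes 21 rose and 9 fell, and among 36 mitosis genes 20 rose and 7 fell, with medians of 0.26 and 0.23. Over all tested genes 36.8% rose and 35.9% fell. The kinase Nek2 rose most among the mitosis genes (1.07). FGF8b alone had 31 replication genes higher and 1 lower. Against FGF8b the combined cells had 12 of them higher and 21 lower (median -0.18, against -0.08 over all genes). The shares of all genes there were 22.5% higher and 34.8% lower. Of the 39 replication genes 30 were lowest in combined library 2. The G1 regulators were even (6 higher and 7 lower of 16): Ccnd1, at 7.70, 7.56 and 7.97 RPKM in control, 34.5, 37.2 and 40.2 with FGF8b and 88.4, 84.8 and 84.7 in combined libraries, rose (3.39 ± 0.08, adjusted p = 5.72e-15), as did Ccnd2 (1.17), while the inhibitor Cdkn1c fell (-1.21).

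Other signalling lists were mixed or lower, beside 36.8% of all genes higher and 35.9% lower. WNT pathway genes fell in 20 of 27 (median -1.26), the secreted antagonists Sfrp4 (-5.36), Sfrp1 (-4.26) and Sfrp2 (-4.23) lowest. TGF-beta and BMP genes fell in 22 and rose in 11 of 36. Here the BMP antagonist Grem1 was at 7.92, 7.96 and 9.31 RPKM in control, 58.3, 61.03 and 55.7 with FGF8b and 197, 208 and 184 in combined libraries, in 3 separate steps (4.47 ± 0.08, adjusted p = 3.61e-16), and the activin antagonist Fst fell (-3.52). Of 39 EGF, semaphorin and VEGF genes 21 rose and 17 fell. The membrane semaphorin Sema7a rose (3.79), the lymphangiogenic factor Figf (-5.15) and the receptor Egfr (35.5 to 2.25 RPKM, -3.72) fell, and the EGFR ligand Areg was at 0.0853 RPKM in control, 15.9 with FGF8b and 2.68 in combined cells (2.44 against control, -2.37 against FGF8b). In prostaglandin synthesis and reception 7 of 16 rose and 6 fell. Ptgs2, the inducible cyclooxygenase, was at 2.81, 3.02 and 3.35 RPKM in control, 8.97, 8.14 and 7.98 with FGF8b and 21.4, 20.4 and 19.6 in combined libraries (2.56 ± 0.09, adjusted p = 7.01e-13), and the prostaglandin F receptor Ptgfr fell (-3.73). Of 24 cAMP genes 11 fell, the phosphodiesterase Pde4b most (-2.39), and 6 rose.

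Large rises outside these lists included the secreted carbonic anhydrase Car6 and the actin regulator Avil (advillin). Car6 was at 0.630, 0.610 and 0.330 RPKM in control, 19.6, 13.1 and 10.9 with FGF8b and 69.6, 71.5 and 65.7 in combined libraries (6.10 ± 0.21, adjusted p = 3.76e-13), 39 reads against 5448 (ratio 133 with a 95% exact interval of 97.2 to 187). Avil was at 0.106, 0.0780 and 0.148 RPKM in control, 4.88, 3.29 and 2.27 with FGF8b and 27.7, 27.5 and 30.2 in combined libraries (19 against 5071 reads). The proliferin gene Prl2c3, a prolactin relative, went from 13.1 ± 1.07 to 509.7 ± 53 RPKM (5.22), as did its near-identical neighbours Prl2c2 (5.13), Prl2c5 (5.11) and Prl2c1 (4.63), between which reads cannot be assigned with certainty. The neuronal pentraxin Nptx1 (0.471 to 27.5 RPKM, 4.84), the adaptor Sh2d6 (4.65) and the mitochondrial protein Chchd10 (4.43) rose with them. Ppef1, a calcium-binding phosphatase, was at 0.426, 0.421 and 0.622 RPKM in control, 0.840, 0.259 and 0.271 with FGF8b and 12.01, 10.6 and 10.8 in combined libraries, the largest excess over FGF8b among the genes named here (3.66 ± 0.19, adjusted p = 4.58e-10).

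Clec3b (tetranectin), a plasminogen-binding protein, had 3797 reads in control, 3 with FGF8b and 0 in combined libraries, at least 1328-fold lower against a floor of 3 reads over the group. Egfl6, a secreted EGF-repeat protein, had 9678 reads in control and 3 in combined libraries (ratio 3385 with a 95% exact interval of 1158 to 16420.0). The interferon-inducible Ifi27l2a (596 ± 71.2 to 2.86 ± 0.861 RPKM, -7.50), the lipid carrier Apod (277 ± 15.3 to 1.36 ± 0.440, -7.25) and the GTPases Iigp1 (-6.87), Tgtp1 (-5.97) and Tgtp2 (-6.10), the last a near-identical pair, were among the other deep falls. Some genes lay at control level in the combined cells although FGF8b alone had moved them. The protease gene Htra1 was at 123, 113 and 117 RPKM in control, 51.7, 49.9 and 51.6 with FGF8b and 117, 110.2 and 119.5 in combined libraries, which overlapped control (-0.02, 95% interval -0.15 to 0.11; against FGF8b 1.17 ± 0.06, adjusted p = 3.02e-10). The cytokine Tslp was at 0.988 ± 0.148 in control, 5.36 ± 0.561 with FGF8b and 1.04 ± 0.0487 in combined cells (95% interval against control -0.28 to 0.38). Gsta4, which detoxifies lipid aldehydes, was at 27.5 ± 1.75, 9.12 ± 0.845 and 31.1 ± 4.76 in the same order (0.17, 95% interval -0.05 to 0.39), and the p53 target Phlda3 at 11.8 ± 1.24, 5.26 ± 0.722 and 11.7 ± 1.72 (-0.02, 95% interval -0.24 to 0.21).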

How the data were processed

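Total RNA of the preadipocytes was sequenced (TruSeq RNA libraries, per the labels' protocols). CASAVA and bcl2fastq are named in the submitters' processing notes. Aligner, counting, build and annotation are unknown (not given in the sources used here). The authors deposited RPKM values for 168326 transcript lines in 15 columns, found to be RPKM from the values; 23172 lines without a symbol were left out. Steps in low values of transcripts with a known length gave the depths. Whole reads for the read ratios were then recovered for 99.96% of tested genes, within 0.05 reads or a wider margin that grew with the count. Where the length was unknown, the smallest length that fitted was taken. For abundant genes this margin lets almost any length fit, so the share is no check on them and their recovered reads can be too few. For each symbol the row with the highest mean was kept, and genes that reached 0.5 RPKM in 3 or more libraries were tested on log2(RPKM + 0.5) with limma 3.58.1 (R 4.3.3; empirical Bayes with a mean-variance trend, 15 libraries in 5 groups, 10 residual degrees of freedom, two-sided, adjusted p threshold 0.05). RPKM carry no further scaling, so a few very abundant transcripts can shift all others. The procedure was tested on simulated data. Alternatives changed the added value, filter, scaling, libraries in the fit, transcript rows, trend, count model, block and replicates.

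Named genes were the 14 with the largest change in each direction (adjusted p under 0.05, libraries not overlapping, at least 1 RPKM in 1 group), 12 followed genes, up to 4 called and 1 uncalled member of each list, and the 8 in each direction that differed most from FGF8b. Predicted gene models were left out of the first and last of these. Other genes named were chosen after their values were seen. The members and lists were chosen with earlier results of these data known. Positions are from GENCODE vM21 on GRCm38, and promoter stretches from RefSeq on GRCm38.p6. The build of the deposited table is not given. A few named genes are not reported here.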

Additional observations from a re-analysis of the deposited data

How the results depend on the processing

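Between combined and control libraries the count of genes past the threshold ranged from 9527 (RefSeq rows) to 11287 (no filter) over the alternatives that keep all libraries, and from 9552 to 9732 when 1 library was left out (4757 to 4945 higher and 4628 to 4869 lower). Against FGF8b, leaving out 1 library gave 2685 to 2965 higher and 4287 to 4653 lower, and the share of higher among the called genes was 39.3% as reported, 48.5% with trimmed-mean scaling and 48.4% with median scaling, which moved the median of all genes from -0.08 to -0.01. All these counts were within 1.5 times those reported. With the replicate number as a block 10155 genes passed against control (5135 higher, 5020 lower) and 8026 against FGF8b (3160 and 4866). Nothing in the labels says that equal numbers share a culture or day, and the correlations of deviations between equally numbered libraries were -0.361, 0.055 and -0.122 for combined and control and -0.087, -0.057 and 0.211 for combined and FGF8b, so the block was not used as a pairing. Of the 225 named and marker genes followed through the alternatives, 3 changed their call against control: the macrophage marker Csf1r turned to -0.53 with RefSeq rows (adjusted p = 5.95e-06) and did not pass without combined replicate 3 (0.28, adjusted p = 0.0557), the mural marker Notch3 did not pass without combined replicate 1 (-0.28, adjusted p = 0.0593), and the muscle gene Acta1 passed without combined replicate 3 (0.33, adjusted p = 0.0373). These p are limma's, adjusted over all genes. Against FGF8b 18 genes lost the call (79 cases over all settings, up to 10 for 1 gene) and 10 gained it (28 cases), so small differences from FGF8b depend on the setting, and Csf1r went to -0.033 with RefSeq rows. Some list medians turned sign: glucose transporters against control (0.45 as reported) without a filter (-0.024) and against FGF8b (-0.24) with the 1 RPKM filter (0.26) and RefSeq rows (0.34); mural markers against control (0.11) without a filter (-0.023) and, over the fits that leave out 1 library, between -0.011 (without control replicate 3) and 0.174; the citrate cycle list against FGF8b (-0.05) with trimmed-mean (0.0274) and median scaling (0.0267); prostaglandin genes against FGF8b (0.34) without a filter (-0.012); and macrophage markers against FGF8b (0.28) with RefSeq rows (-0.033). The cause was not tested in any of these cases. Depth limits genes with few reads, whose changes on log2(RPKM + 0.5) are understated.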

Other observations

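Other gene groups, put together after the values were seen, are given as values with no test of the group. Of 22 genes listed as imprinted, that is expressed from 1 parental copy in at least some tissues, 18 were tested, 16 fell and 2 rose (median -2.10). Whether these genes are imprinted in these cells was not tested. H19, Dlk1, Dcn and Cdkn1c, named in the report, are among them, so the count partly restates those results. Igf2, the growth factor that neighbours H19, went from 2.21 ± 0.297 RPKM in control to 0.0624 ± 0.0379 in combined cells (856 reads against 26; change -2.27 ± 0.13, limma adjusted p = 1.98e-10). Subunits of the vacuolar ATPase, the proton pump that acidifies lysosomes, rose in 13 of 15 cases and 2 did not pass (median 0.92). Atp6v1h, named in the report, is among them, so this count partly restates its rise. Of 12 heat shock genes 8 rose and 4 fell (median 0.49). Those that fell were Cryab (-1.51), Hspa1b (-1.07), Hspa1a (-0.89) and Bag3 (-0.57). Of 14 genes of iron uptake and storage 7 rose, 2 fell and 5 did not pass (median 0.31). The shares over all tested genes were 36.8% higher and 35.9% lower.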
